A study of Mus musculus with 6 samples.

Results

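The largest group of replication-dependent histone genes of the mouse lies in a proximal and a distal cluster on chromosome 13, and DNA methylation was profiled across both in the hypothalamus of 16 week old offspring. The members were the tiling array probes, controls left out, that lie in chr13:21780000-22140000 (the proximal cluster) or chr13:23600000-23880000 (the distal cluster) of the mm9 build. They numbered 560 of 174638 probes, with 157 in the proximal and 403 in the distal cluster. Neighbours with starts no more than 500 bp apart were joined into runs of 3 or more, which gave 45 of the 22574 runs on the array. The 16 proximal runs are called P1 to P16 and the 29 distal runs D1 to D29, in their order along the chromosome. The runs held 553 member probes, and the other 7 stood alone.

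Each array set methylated DNA of a sample, enriched with an antibody to methylated cytosine (MeDIP, labelled with Cy5), against the input DNA of that sample (Cy3). The 3 inulin arrays carried offspring labelled as maternal inulin treatment, inulin being a fermentable plant fibre. The 3 obesity arrays carried offspring labelled as maternal obesity in their titles and as maternal high fat diet in their characteristics. The labels do not say whether the inulin dams were obese or fed that diet too, nor the strain, sex or litter of the offspring, so p-values measure only the spread between these samples, which may be technical. Hypothalamic tissue is a mixture of neurons and glia, in which a change of methylation per cell and a change in the mix of cells cannot be told apart. The array files name no genes, so the tissue label could not be set against marker genes.

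The 6 arrays differed in ways that run along the groups. The file headers give a scan identifier, and arrays that shared one are taken here to share a slide. On that reading the 3 inulin arrays came from slide 1, obesity arrays 1 and 3 from slide 2 and obesity array 2 from slide 3. Slide and group therefore cannot be told apart. The obesity arrays had a wider spread of log2 ratios. Over the member probes the interquartile range was 1.70, 1.65 and 1.63 on the inulin arrays and 2.002, 2.35 and 2.10 on the obesity arrays. Over all probes it was 1.37 to 1.39 and 1.62 to 1.89. Across the 560 member probes, the log2 ratios of arrays of one group correlated at 0.94 to 0.98 and those of arrays of different groups at 0.90 to 0.94. These correlations are across probes, which are not independent replicates.

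Histones H2A, H2B, H3 and H4 form the protein core around which DNA is wound, and histone H1 binds the DNA where it enters and leaves that core. The genes of the replication-dependent copies have no introns, are transcribed as cells enter S phase, and give messages that end in a stem-loop in place of a poly(A) tail. Many near-identical copies lie side by side, which supplies histones for newly made DNA, while non-dividing neurons draw more on replacement variants encoded elsewhere. The first histone group of the RefSeq annotation (GRCm38.p6) runs from H2bc13 to H2bc11 and holds 24 histone genes, of which 1 encodes H1, 8 H2A, 8 H2B, 2 H3 and 5 H4. It also holds 31 tRNA genes and the genes Pom121l2, Prss16 and Zfp184. The second group runs from H4c8 to H1f1 with 30 histone genes, of which 5 encode H1, 6 H2A, 6 H2B, 7 H3 and 6 H4, together with Hfe, whose product restrains iron uptake. Of these 54 genes, 2 are pseudogenes. Between the groups lie 75 genes of the Vmn1r family of vomeronasal pheromone receptors, 36 of them coding, and 46 tRNA genes.

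RefSeq describes another build than the mm9 positions of the array, and the array files hold no probe sequences. No run was therefore assigned to a gene, and near-identical histone copies may share signal at a probe, which was not tested. The upstream sequences are shown because the antibody binds methylated cytosine, which in mammals lies mainly in the dinucleotide CG, and the histone promoters differ widely in how many they hold. In the 250 bases upstream of the start, read on the gene's strand, H4c1 (an H4 gene) had the most CG dinucleotides, 27, H1f4 (H1) had 19, H2ac6 (H2A) had 6, and H2bc3 (H2B) had 2. Capitals mark CG in these RefSeq sequences from chromosome 13 of GRCm38.p6, where H2bc3 lies on the plus strand and the others on the minus strand.
H4c1: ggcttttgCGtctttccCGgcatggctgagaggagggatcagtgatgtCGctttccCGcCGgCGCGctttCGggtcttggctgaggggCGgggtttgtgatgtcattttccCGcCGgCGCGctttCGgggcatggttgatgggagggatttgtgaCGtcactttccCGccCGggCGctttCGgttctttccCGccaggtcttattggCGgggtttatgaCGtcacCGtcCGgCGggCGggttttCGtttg
H1f4: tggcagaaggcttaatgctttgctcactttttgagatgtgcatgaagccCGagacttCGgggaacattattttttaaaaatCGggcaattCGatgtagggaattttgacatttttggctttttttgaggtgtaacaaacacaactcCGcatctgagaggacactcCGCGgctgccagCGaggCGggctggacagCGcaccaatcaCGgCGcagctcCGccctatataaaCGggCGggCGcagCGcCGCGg
H2ac6: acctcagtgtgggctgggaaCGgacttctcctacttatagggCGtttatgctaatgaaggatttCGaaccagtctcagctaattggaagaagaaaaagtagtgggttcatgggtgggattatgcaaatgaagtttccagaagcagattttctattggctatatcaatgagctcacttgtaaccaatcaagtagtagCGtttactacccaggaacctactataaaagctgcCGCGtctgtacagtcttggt
H2bc3: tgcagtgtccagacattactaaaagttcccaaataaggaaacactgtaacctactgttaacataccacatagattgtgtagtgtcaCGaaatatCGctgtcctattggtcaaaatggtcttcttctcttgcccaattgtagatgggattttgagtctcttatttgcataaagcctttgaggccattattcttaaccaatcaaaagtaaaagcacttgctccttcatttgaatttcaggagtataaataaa

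RefSeq promoter windows were found for 49 of the 54 genes, in 50 windows. Their median was 9.5 CG dinucleotides in 250 bases, against 6 over the 32851 windows of all genes. The letters CCAAT, searched on both strands, stood in 42 of the 50 windows (84%), against 33.8% of all windows. By histone, CCAAT was in every H1, H2A, H2B and H3 window and in 3 of the 11 H4 windows, 1 of them H4c1. TATAAA was in 24 windows (48%; 12.4% of all), and AAACACA, letters of the element that precedes H1 genes, in 7 (14%; 6.25% of all), of which 5 were among the 6 H1 windows. A match of letters is a description and not a measured site.

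The first question was how strongly the clusters were enriched by MeDIP. Values are log2 of the MeDIP over the input signal, with each array centred on its median over all probes, so that 0 is the array's typical probe and not an unmethylated one. The median level over the 45 runs was -0.36, with -0.06 in the proximal and -0.50 in the distal cluster. It was -0.88 over the 42 runs between the clusters and -0.06 over all runs of the array. Probes of the array ran from 45 to 60 bp. The mean probe length of a run had a median of 49.9 bp in the proximal and 51.7 bp in the distal cluster. It was 53.4 bp between the clusters and 48.5 bp over all runs. The median level over all probes was 0.44 at 45 bp and -1.185 at 60 bp. Among member probes it was 0.63 and -1.27. Levels were not adjusted for probe length. In the proximal cluster 8 of 16 runs lay above 0, and in the distal cluster 6 of 29. MeDIP was well above background on all 6 arrays at 339 of 560 member probes (60.5%) and on none at 119 (21.3%), against 73.5% and 12.5% of all probes. Input was well above background on all arrays at 493 member probes (88.0%), against 91.97% of all probes.

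**Figure D1:**
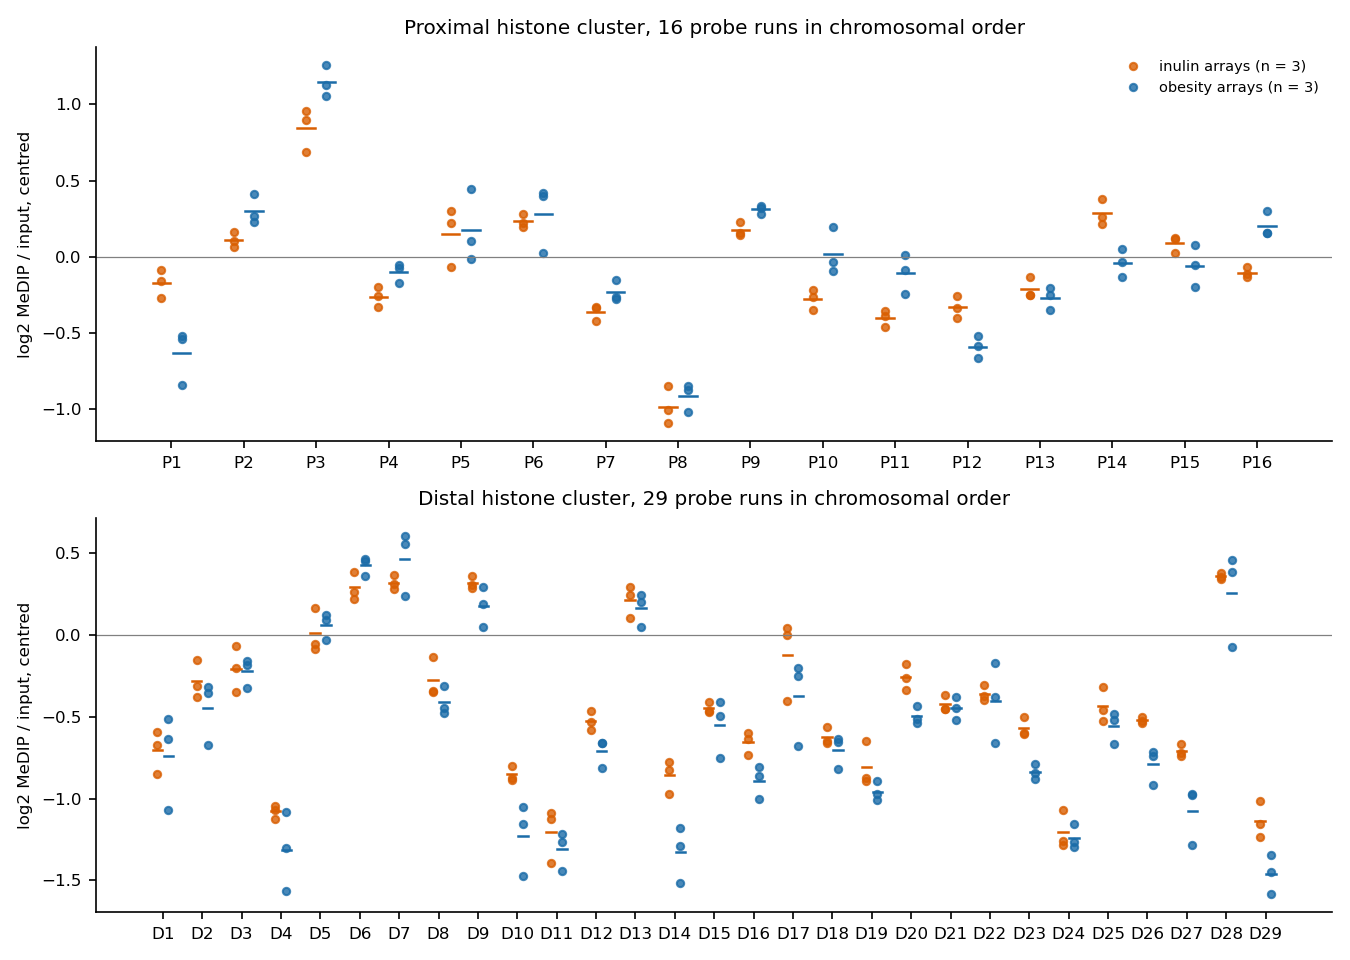
Log2 MeDIP over input ratio (y axis, centred per array) of the 16 proximal runs (top) and the 29 distal runs (bottom), in order along the chromosome. Each point is 1 array, with inulin in orange, obesity in blue and bars at the group means (n = 3); P3 stands highest at a mean level of 0.998 and D29 lowest at -1.30.

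The most enriched run was P3 (chr13:21812764-21814255, 8 probes), at a mean level of 0.998 over the 6 arrays and above 98.6% of all runs. Its centred MeDIP signal was 0.34 (percentile 61.3 of all runs) and its input -0.73 (percentile 16.8). MeDIP was well above background on all 6 arrays at 5 of its 8 probes. Its probe levels ran from -1.08 to 2.68. Its ratios were 0.90, 0.69 and 0.96 on the inulin arrays and 1.06, 1.13 and 1.26 on the obesity arrays. The next were D7 (chr13:23662190-23664293) at 0.39, D6 (chr13:23653774-23655412) at 0.36 and D28 (chr13:23852724-23855897) at 0.31, which differed from each other by less than their spread over arrays. D28 was positive on 5 arrays and -0.07 on obesity array 2. The least enriched runs were all distal. D29 (chr13:23873716-23874892) had a mean level of -1.30, D11 (chr13:23724642-23726393) -1.26, D24 (chr13:23822417-23824526) -1.22 and D4 (chr13:23643164-23644643) -1.20, at percentile 7.22 of all runs or below. In each of these 4 runs, MeDIP was well above background on all 6 arrays at 3 or 4 probes.

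High and low runs lay close together. D13 and D14, of 4 probes each, were 477 bp apart and had mean levels of 0.19 and -1.09. D4 and D5 were 979 bp apart, at -1.20 and 0.04. In the proximal cluster, P8 and P9 were 1554 bp apart, at -0.95 and 0.24. In each pair the ranges of probe levels overlapped. Mean probe lengths were 49.25 and 56.25 bp in D13 and D14. They were 50.9 and 51.5 bp in D4 and D5, and 51.9 and 49.5 bp in P8 and P9. The probes within a run also varied widely. The SD of probe levels within a run had a median of 1.24 over the member runs and 0.90 over all runs, while the SD between run means was 0.52 among the members and 0.67 over all runs. In P2 (chr13:21806981-21809789, 14 probes) the lowest probe was at -2.69 and the highest at 3.90.

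The longest runs show this pattern at the scale of single probes. D25 (chr13:23825014-23838932) held 65 probes over 13919 bp, with probe levels from -4.15 to 3.63. Its highest 2 kb stretch began 4 kb from the first base, at a mean of 0.50 ± 0.22 (SD, n = 3) on the inulin and 0.50 ± 0.06 on the obesity arrays. Its lowest stretch, from 10 to 12 kb, was at -1.27 ± 0.09 and -1.52 ± 0.11, and there MeDIP was well above background on all arrays at 1 of 9 probes. D19 (chr13:23766152-23780898) held 60 probes over 14747 bp and spanned -2.89 to 0.996. Its highest stretch, from 2 to 4 kb, was at -0.07 ± 0.17 on the inulin and -0.17 ± 0.10 on the obesity arrays. Its lowest, from 4 to 6 kb, was at -1.33 ± 0.33 and -1.72 ± 0.14. In both runs, the highest and the lowest stretch were the same in both groups, as the plot of the long runs shows.

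**Figure D2:**
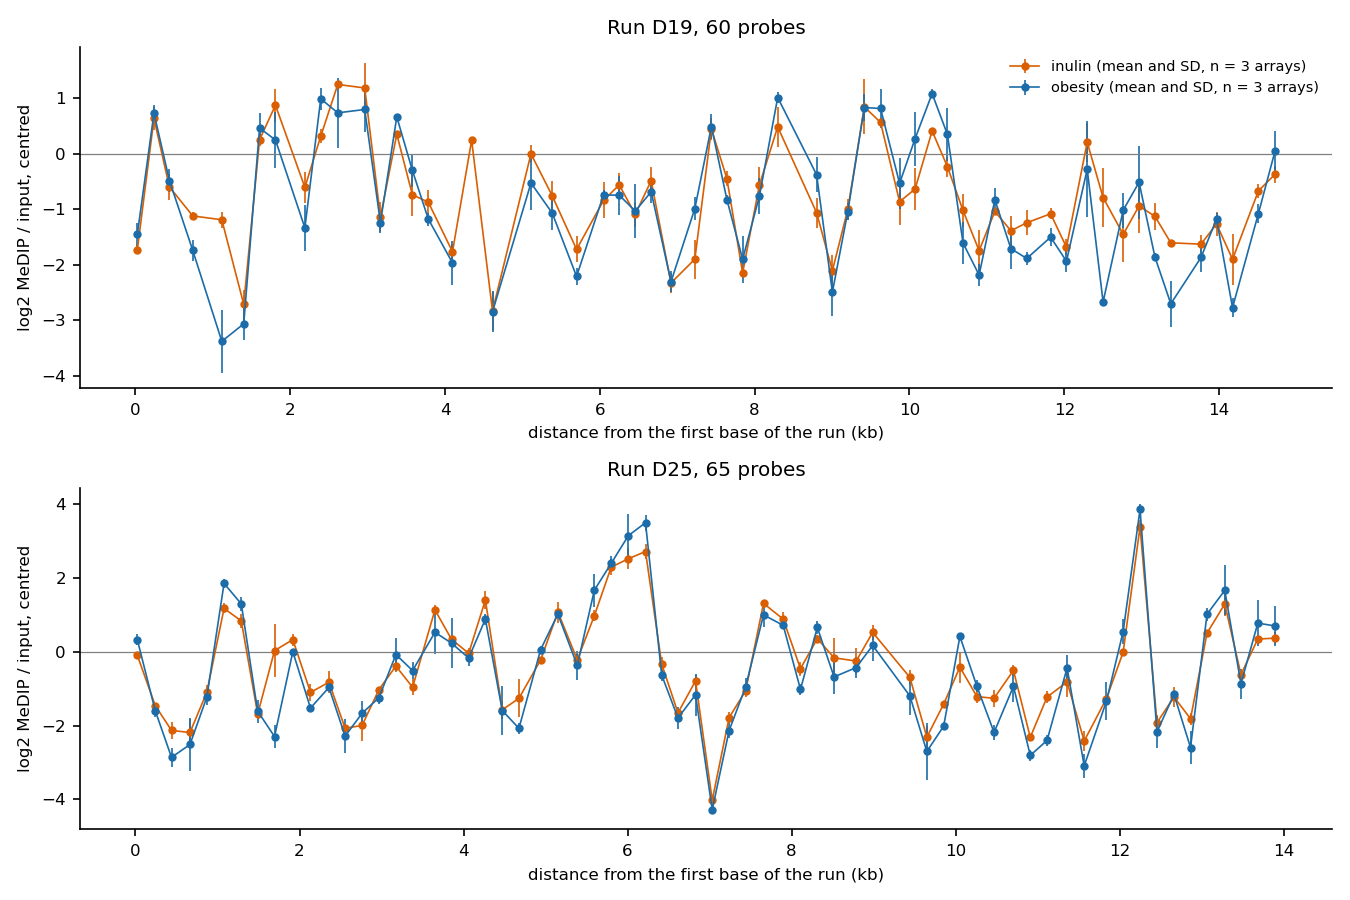
Log2 MeDIP over input ratio (y axis, centred) of each probe of D19 (top, 60 probes) and D25 (bottom, 65 probes) against the distance from the first base of the run in kb (x axis). Points and error bars are the mean and SD of 3 inulin (orange) or 3 obesity (blue) arrays; D25 ranges from -4.15 to 3.63 and D19 from -2.89 to 0.996.

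The second question was where the ratio differed between the inulin and the obesity group. Higher ratios in the inulin group were found at D14, P1, D27 and P14, and a lower ratio at P16. By limma with Benjamini-Hochberg adjustment over all runs, 5 of 45 member runs passed the threshold of 0.05, against 7.42% of all runs. Of these, 4 were higher in the inulin group (5.61% of all runs) and 1 was lower (1.81%). At an unadjusted p under 0.05 there were 12 higher (19% of all runs) and 5 lower (9.6%) member runs, 17 in all, against 28.6% of all runs. With 5 calls among 45 runs, the count stands near that background. None of the 5 passed with slide as a random block, where 0% of all runs did. None passed when any single inulin array was left out, where again 0% of all runs did, or without obesity array 3, where 2.8% did. Other processing moved the count and its split. Loess gave 11 calls (6 higher, 5 lower; 12% of all runs) and normexp 7 (1 higher, 6 lower; 8.53%). There were 3 calls on an equal scale (1 higher, 2 lower; 4.1%), 1 after quantile normalization (lower; 2.2%), 2 by the authors' deposited table (both lower; 2.58%) and 7 of 43 with both channels above background (2 higher, 5 lower; 7.31%). Higher and lower calls over all runs were 1768 and 939 with loess, 1027 and 898 with normexp, and 490 and 435 on an equal scale. They were 251 and 246 after quantile normalization, 248 and 334 by the authors' table, and 1147 and 372 with both channels above background.

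Run D14 (chr13:23742657-23743401, 4 probes) had ratios of -0.97, -0.83 and -0.77 on the inulin arrays and -1.29, -1.18 and -1.52 on the obesity arrays. All inulin values lay above all obesity values. The difference, inulin minus obesity, was 0.47 (SE 0.10, adjusted p = 0.0304 by limma). The MeDIP channel differed by 0.49 and the input channel by 0.03, and neither passed on its own. The 2 probes at the far end of the run differed by 0.83 and 1.03, and MeDIP there was well above background on 2 and 4 of the 6 arrays. Its other probes differed by -0.07 and 0.10. On an equal scale, in which all arrays have the same spread, the difference of D14 was 0.24 (adjusted p = 0.208).

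Run P1 (chr13:21794239-21795335, 6 probes), the first of the proximal cluster, had ratios of -0.16, -0.08 and -0.27 on the inulin arrays and -0.52, -0.54 and -0.84 on the obesity arrays, with no overlap. The difference was 0.46 (SE 0.10, adjusted p = 0.0324 by limma). MeDIP differed by 0.52 and input by 0.08, and neither passed on its own. Within the run the difference changed along its length. The first 3 probes differed by 0.85, 0.93 and 0.99, the fourth by 0.28, and the last 2 by -0.22 and -0.07. MeDIP was well above background on all arrays at 5 of the 6 probes. With the probes limited to those above background in both channels the difference was 0.44 (adjusted p = 0.0303), and on an equal scale it was 0.38 (adjusted p = 0.060).

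Run P14 (chr13:22101216-22102789, 8 probes) had ratios of 0.22, 0.38 and 0.26 on the inulin arrays and 0.05, -0.13 and -0.04 on the obesity arrays. The groups did not overlap, and the difference was 0.33 (SE 0.08, adjusted p = 0.0437 by limma). In this run the MeDIP channel differed by 0.00 and the input channel by -0.30. Run D27 (chr13:23847506-23849245, 8 probes) had ratios of -0.74, -0.72 and -0.67 on the inulin arrays and -0.98, -1.28 and -0.97 on the obesity arrays. Its difference was 0.37 (SE 0.10, adjusted p = 0.0496), with 0.16 in MeDIP and -0.19 in input. In each of P14 and D27 the 1 probe called on its own had a MeDIP signal not well above background on any array. With both channels required above background, the difference was 0.11 in P14 (adjusted p = 0.262) and 0.17 in D27 (adjusted p = 0.229).

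Run P16 (chr13:22132837-22135937, 15 probes), the last of the proximal cluster, was the run with the lower ratio in the inulin group. Its ratios were -0.11, -0.07 and -0.13 on the inulin arrays and 0.15, 0.16 and 0.30 on the obesity arrays, with no overlap. The difference was -0.31 (SE 0.07, adjusted p = 0.0391 by limma), made of -0.20 in MeDIP and 0.13 in input. Of its 15 probes, 4 were called lower and 1 higher. With both channels above background the difference was -0.59 (adjusted p = 0.0196), and on an equal scale -0.30 (adjusted p = 0.0487). With the median of the probes in place of their mean it turned to 0.089 (adjusted p = 0.736).

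Further runs did not pass the threshold. D23 (chr13:23802182-23803786) differed by 0.27 (adjusted p = 0.0511), and the lower ratios were at P11 (chr13:21923668-21926616) with -0.29 (adjusted p = 0.0628), P10 (chr13:21900944-21903907) with -0.30 (0.0742), P3 with -0.30 (0.0780) and P2 with -0.19 (0.138). In these 5 runs the groups did not overlap either. With the median of the probes, P3 differed by 0.097, in the other direction (adjusted p = 0.722). Over the 45 runs, the groups did not overlap at 20, of which 12 were higher and 8 lower in the inulin group, against 35% of all runs (20.8% higher and 14.2% lower).

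**Figure D3:**
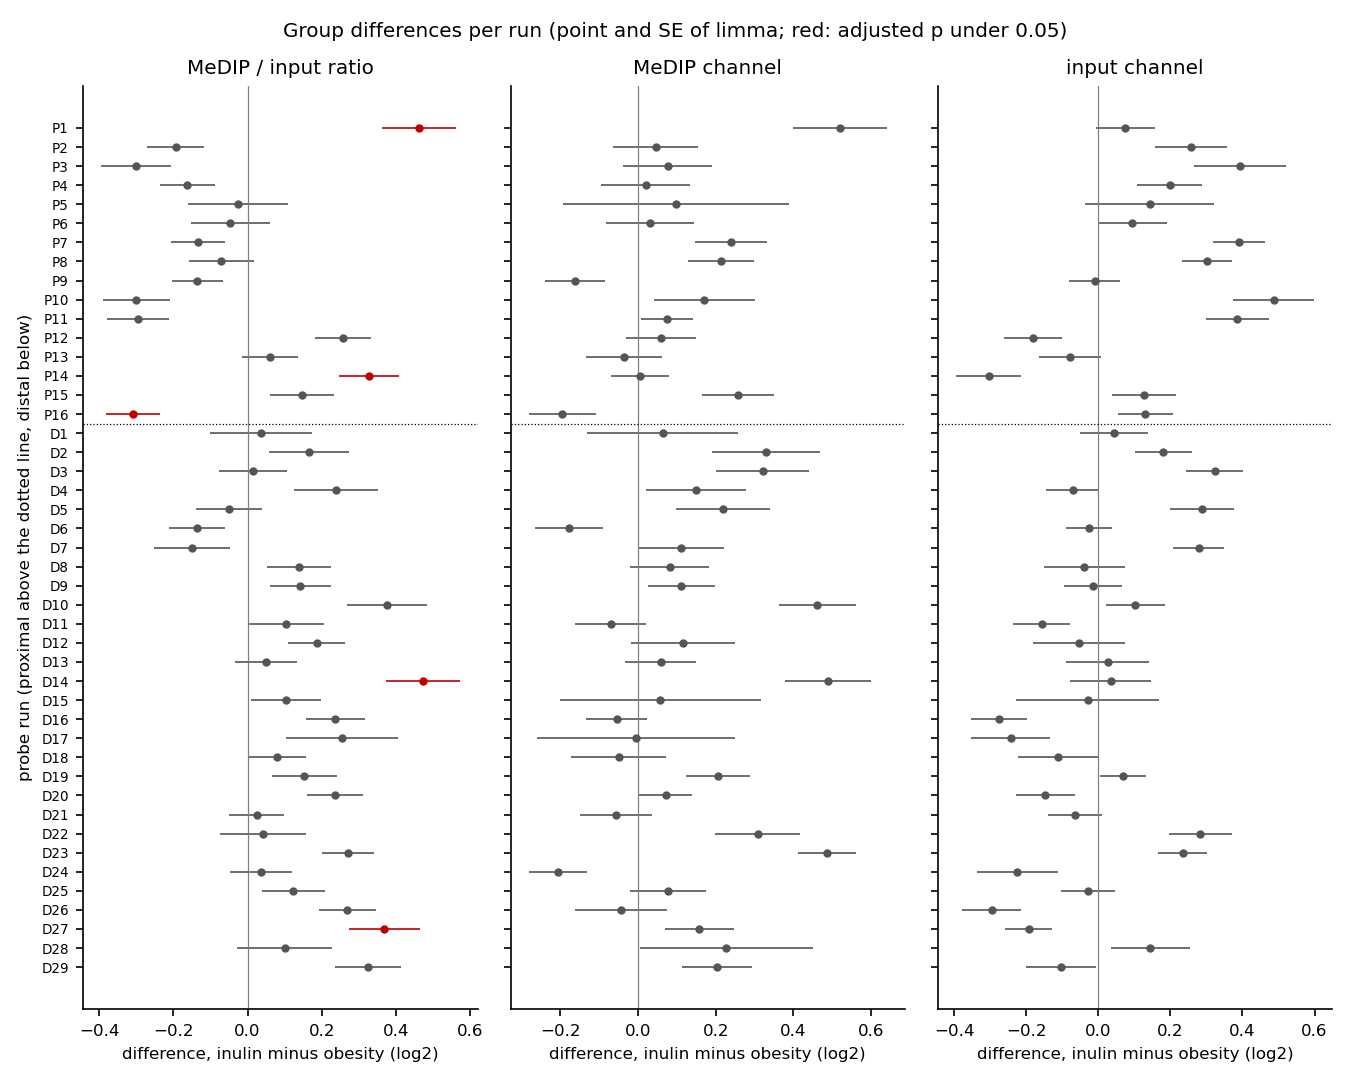
Difference between groups, inulin minus obesity on the log2 scale (x axis), for each run (y axis, proximal above the dotted line) in the ratio, the MeDIP channel and the input channel. Points are limma estimates with their SE from 3 arrays a group; red marks an adjusted p under 0.05, which 5 runs reached in the ratio and none in either channel.

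The 2 clusters lay on different sides of 0. The ratio was higher in the inulin group at 5 of 16 proximal runs, with a median difference of -0.10, and at 26 of 29 distal runs, with a median of 0.14, against 57.3% and a median of 0.03 over all runs. In the stretch between the clusters, 36 of 42 runs were above 0 (85.7%), with a median of 0.15. The groups did not overlap at 11 of 16 proximal runs (68.8%), 3 higher and 8 lower, and at 9 of 29 distal runs (31.0%), all higher. Over all runs the share was 35% (20.8% higher and 14.2% lower). The distal count of runs above 0 depended on the scaling. It was 16 of 29 on an equal scale or after quantile normalization, 20 with normexp, 22 with loess and 9 in the authors' deposited table, where the distal median was -0.03 on that table's own scale. The proximal count was 4 to 7 of 16 under these settings. The proximal median was below 0 under each of these settings and 0.07 with the median of the probes. No test was made of the difference between the clusters.

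**Figure D4:**
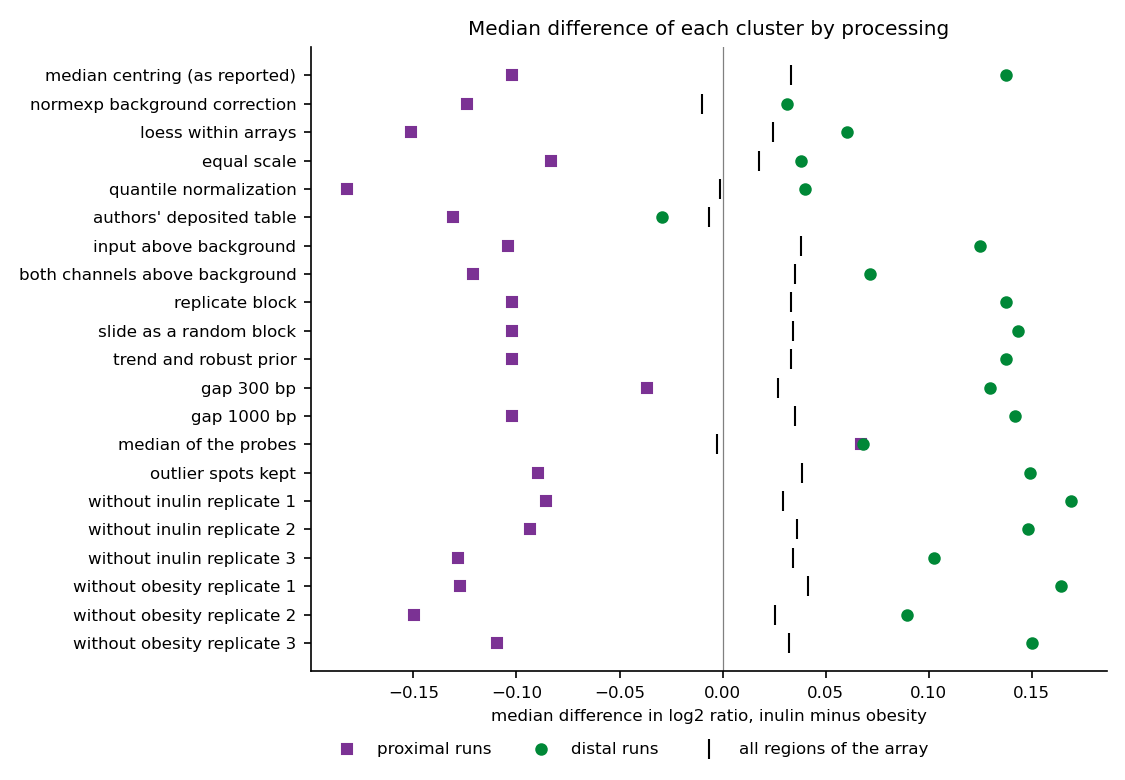
Median difference in log2 ratio, inulin minus obesity (x axis), of the 16 proximal runs (squares), the 29 distal runs (circles) and all regions of the array (ticks) under each way of processing (y axis; for the authors' deposited table in its own units). As reported, the medians are -0.10, 0.14 and 0.03; the distal median falls below 0 in the authors' deposited table and the proximal one rises above 0 with the median of the probes.

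Differences followed the level. Across the 45 runs, level and difference correlated at r = -0.57, with -0.31 over the 16 proximal and -0.62 over the 29 distal runs. The level correlated at -0.53 and the difference at 0.51 with the mean length of a run's probes. These are descriptions across runs that share the same 6 arrays, and the wider spread of the obesity arrays moves with them. Its part in the result was tested only through the equal-scale and quantile-normalized values given here.

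Each channel was also compared on its own, because a ratio moves with either. In the MeDIP channel 0 of 45 member runs passed the limma threshold, against 0.253% of all runs. At an unadjusted p under 0.05 there were 11 member runs, 10 higher and 1 lower, against 21% of all runs (15.2% and 5.78%). The run with the lowest p was D23, with centred log2 signals of -0.37, -0.26 and -0.41 on the inulin and -0.85, -0.88 and -0.79 on the obesity arrays. Its MeDIP difference was 0.49 (SE 0.08, adjusted p = 0.071). D10 (chr13:23712629-23715572, 14 probes) differed by 0.46 (adjusted p = 0.101) and D14 by 0.49 (adjusted p = 0.107). The lower MeDIP signals were at D24, with -0.21 (adjusted p = 0.194), P16, with -0.20 (0.259), and P9 (chr13:21878060-21880226), with -0.16 (0.288).

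In the input channel 0 of 45 member runs passed by limma, against 2.14% of all runs. There were 15 at an unadjusted p under 0.05, of which 11 were higher and 4 lower, against 24.4% (15.6% and 8.79%). P7 (chr13:21872067-21873574, 7 probes) had input signals of -1.44, -1.46 and -1.44 on the inulin and -1.79, -1.94 and -1.79 on the obesity arrays, a difference of 0.39 (SE 0.07, adjusted p = 0.0528). P11 differed by 0.39 (adjusted p = 0.0713) and P10 by 0.49 (0.0729). The MeDIP difference was 0.07 in P11 and 0.08 in P3, against input differences of 0.39 in each. The lower input signals were at D26 (chr13:23841690-23844683), with -0.30 (adjusted p = 0.102), D16 (chr13:23749547-23755546), with -0.27 (0.103), and P14, with -0.30 (0.116). The input difference was larger in size than the MeDIP difference in 24 of the 45 runs, against 49.1% of all runs. The ratio difference correlated at -0.62 with the input difference and at 0.43 with the MeDIP difference across runs, which is partly built in, since the ratio is made of both. The brightest input among the members was at P1, D14 and P4 (chr13:21825719-21827098), with centred signals of 1.37, 1.32 and 0.91, at percentiles 93.4, 92.7 and 85.3 of all runs.

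Single probes gave more calls than runs. By limma over all probes, 85 of 552 tested member probes passed, 50 higher and 35 lower in the inulin group, or 15.4%, against 8.21% of all probes (5.12% higher and 3.08% lower). On an equal scale 31 member probes passed (13 higher, 18 lower), against 3.51% of all probes (1.72% higher and 1.79% lower). By the authors' deposited table, 30 of 560 passed (9 higher, 21 lower), against 2.77% of all probes (2107 higher, 2725 lower). With both channels above background 75 of 327 passed (34 higher, 41 lower), against 12.7% (9849 higher, 5731 lower). With slide as a random block, 4 passed (3 higher, 1 lower), against 0.159% (240 higher, 30 lower). Among the members the direction of the split therefore turned with the scaling and the filter. Over all probes it turned on an equal scale and in the authors' deposited table, but not with the filter.

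Direction followed probe length, which the array design varies from 45 to 60 bp. Of the 175 tested member probes of 45 bp, 0 were called higher and 27 lower (15.4%), against 1.21% higher and 4.03% lower over all 84144 tested probes of that length. Of the 254 of 46 to 59 bp, 22 were higher (8.66%) and 6 lower (2.36%), against 5.91% and 2.71% of 63049. Of the 123 of 60 bp, 28 were higher (22.8%) and 2 lower (1.63%), against 17.4% and 0.640% of 22826. The turn from lower to higher with length thus ran the same way over the whole array. MeDIP was well above background on all arrays at 87.1% of the member probes of 45 bp and 19.5% of those of 60 bp. Over all probes of these lengths the shares were 89.8% and 28.9%. By level, 44 of the 192 tested member probes below -1 were called higher (22.9%) and 2 lower (1.04%), against 15.7% and 0.682% of the 37700 probes of the array at such levels. Of the 78 above 1, 0 were called higher and 21 lower (26.9%), against 0.0789% and 6.29% of 25342. The same order held over the whole array, and the difference in shares between members and array was not tested.

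**Figure D5:**
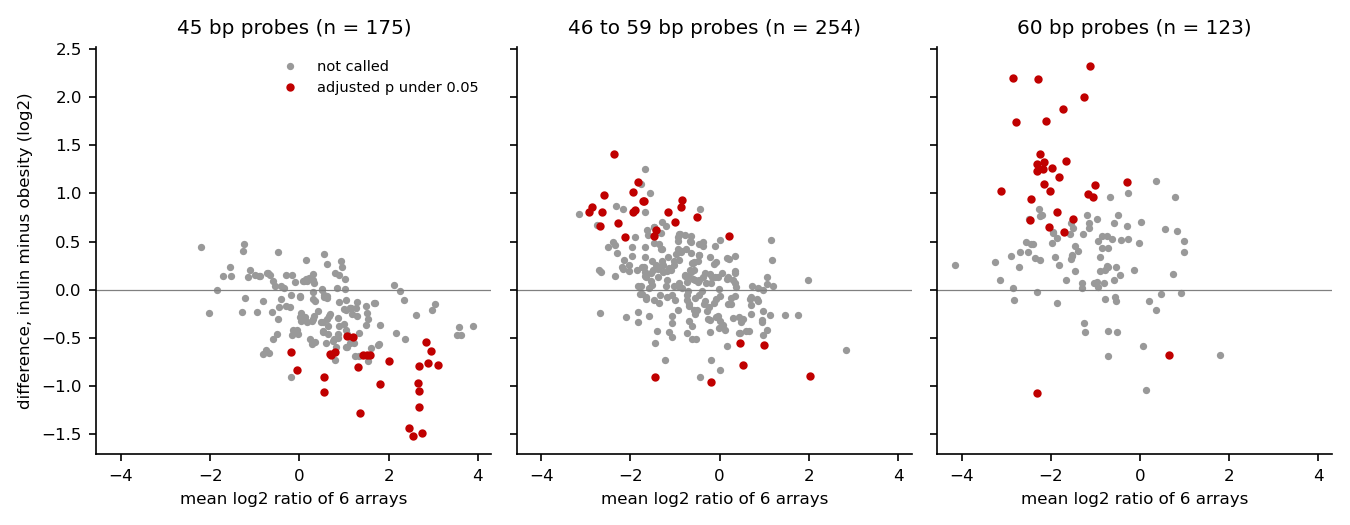
Difference between groups, inulin minus obesity (y axis, log2), against the mean log2 ratio over 6 arrays (x axis) for the 552 tested member probes, split by probe length. Red points have an adjusted p under 0.05 by limma; they lie mostly above 0 among the 60 bp probes (28 higher, 2 lower) and below 0 among the 45 bp probes (0 higher, 27 lower).

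The probe with the lowest p among those higher in the inulin group and measured above background in both channels was Ch_220697_0027465 (chr13:22128496-22128555, 60 bp), at the end of P15. Its ratios were -1.996, -1.93 and -1.80 on the inulin and -3.52, -4.02 and -3.41 on the obesity arrays. The difference was 1.74 (SE 0.18, adjusted p = 0.0083 by limma), with 1.58 in MeDIP and -0.15 in input. Run P15 as a whole (chr13:22126651-22128555, 10 probes) differed by 0.15 (adjusted p = 0.292). Probe Ch_220697_0027875 in D10 (chr13:23713487-23713542, 56 bp) had ratios of -1.57 and -1.49 on inulin arrays 1 and 3, its spot on inulin array 2 being an outlier, and -2.94, -2.90 and -2.96 on the obesity arrays. Its difference was 1.41 (SE 0.12, adjusted p = 0.0086), with 2.11 in MeDIP and 0.73 in input. Probe Ch_220697_0027942 in D16 had a lower p, but its MeDIP signal stayed near background in both groups on all 6 arrays, and its difference is left out.

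Lower in the inulin group was probe Ch_220697_0027477 in P16 (chr13:22135276-22135320, 45 bp), with ratios of 1.84, 1.74 and 1.78 on the inulin and 3.12, 3.62 and 3.16 on the obesity arrays. The difference was -1.52 (SE 0.16, adjusted p = 0.0087 by limma), with -1.16 in MeDIP and 0.37 in input. Probe Ch_220697_0027351 in P3 (chr13:21814000-21814044, 45 bp) stood at 2.15, 2.13 and 1.93 on the inulin and 3.18, 3.35 and 3.33 on the obesity arrays, a difference of -1.21 (SE 0.12, adjusted p = 0.0079). Its MeDIP signal differed by -0.69 and its input by 0.54. Probe Ch_220697_0027386 in P8 (chr13:21874994-21875038, 45 bp) stood at 1.99, 1.74 and 2.25 against 3.21, 3.61 and 3.63, a difference of -1.49 (SE 0.18, adjusted p = 0.0120). Its MeDIP signal differed by -0.77 and its input by 0.73. These 3 probes had mean levels of 2.54, 2.68 and 2.74, in the order given, and at each of them all inulin arrays lay below all obesity arrays. On an equal scale the 5 probe differences were 1.13, 0.92, -0.96, -0.63 and -0.89, in the order given, and all 5 passed. With slide as a random block the P3 and P8 probes did not pass (adjusted p = 0.0568 and 0.0827), and the P8 probe missed it in the authors' deposited table (0.0742). The P8 probe was also lost without inulin array 1 (adjusted p = 0.0529) or inulin array 2 (0.0515).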

How the data were processed

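Genomic DNA of hypothalamic samples was enriched for methylated DNA, labelled and hybridised by the authors, per the labels' protocols. The arrays were extracted with Feature Extraction 11.0.1.1 and protocol ChIP_1100_Jul11, with positions in mm9, per the file headers. The processed signals are intensity values, less background and times a linear factor for each dye, per the file headers. The deposited log10 ratio of red over green equalled that of the processed signals within 0.0001 at 98.5% to 99.6% of spots. The authors' deposited table holds a score per probe whose correlation with its array's log2 ratio was 0.87 to 0.91. Its direction is thus the same, but its scale, centring and log base are unknown, and its array medians were 0.061, 0.057 and 0.043 (inulin) and 0.056, 0.054 and 0.054 (obesity). The steps behind it are not given in the sources used here.

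Outlier spots were left out (1901 to 4863 per array), and log2 ratios and log2 channels were centred on each array's median. Most probes of a MeDIP array carry signal, so neither loess nor quantile normalization was applied. A run's value is the mean of its probes. A test needed 2 or more arrays per group with a value. The comparison used limma 3.58.1 (lmFit, then eBayes; R 4.3.3; two-sided), fitted on the whole array and adjusted by Benjamini-Hochberg over all of it at 0.05. With 3 arrays against 3, an exact permutation test of one value cannot go below p = 0.1, and none was used. The fit was tested on simulated data, drawn with the same spread in both groups and no slide effect. That test therefore does not cover the wider obesity arrays or the slides. Figures were drawn with matplotlib 3.10.9. Per array, 94.4% to 96.4% of probes had input well above background and 77.3% to 85.7% had MeDIP so, and the number of arrays limits the precision.

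The members and lists were chosen with earlier results of these data known. Runs were named if they passed the threshold (with fewer than 5 in a direction, the 5 lowest p), if they were among the 4 highest or lowest levels, the 3 brightest inputs or the 2 with most probes, or for the 3 lowest p per direction in a channel. Probes were named for the 3 lowest p per direction. Other probes of called runs, run pairs P8, P9, D5 and D13, and run P15 are mentioned after their values were seen. Gene lists had no values, since no run has a gene name. The alternatives were normexp (offset 50), loess, quantile normalization, equal scale, the authors' deposited table, filters on dim input or on both channels, replicate and slide blocks, a trend with robust prior, the median of a run's probes, gaps of 300 and 1000 bp, outlier spots kept, a threshold of 0.1, and leaving out each array.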

Additional observations from a re-analysis of the deposited data

How the results depend on the processing

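Shares in brackets are those called over the whole array under the same setting. The 5 member runs called by ratio (7.42%) became 11 with loess (12%) and 3 with arrays put on an equal scale (4.1%). There was 1 with quantile normalization (2.2%), 2 from the authors' deposited table (2.58%) and 8 of 71 with a gap of 300 bp (6.51%). With the median of the probes there were 3 (3.25%), with outlier spots kept 10 (11.7%), and at a threshold of 0.1 there were 15 (17.6%). A random block for slide, whose correlation was 0.29, left 0 (0%). In the MeDIP channel, with 0 calls as reported, there was 1 with the median of the probes (1.87%), 4 of 45 with outlier spots kept (8.89% of members; 13.96% of all) and 1 at 0.1 (2.84%). In the input channel, also 0 as reported, there were 4 of 71 with a gap of 300 bp (2.95%), 3 with the median of the probes (4.46%), 9 of 45 with outlier spots kept (20% of members; 24.65% of all) and 6 at 0.1 (9.52%). The 85 called member probes (8.21%) became 143 with normexp (15.9%), 31 with an equal scale (3.51%), 30 with quantile normalization (2.7%), 30 from the authors' deposited table (2.77%), 4 with the slide block (0.159%) and 155 at 0.1 (19.05%). Leaving out each array in turn left 0 to 5 runs by limma. It was 0 without inulin array 1, 2 or 3 (0% each) or obesity array 3 (2.8%). It was 1 without obesity array 1 (4.22%) and 5 without obesity array 2 (9.63%). Probes called numbered 9 to 86, with 12, 9 and 18 without inulin array 1, 2 or 3 (0.553%, 0.421% and 1.33%). They numbered 41 and 44 without obesity array 1 or 3 (3.053% and 3.498%), and 86 without obesity array 2 (9.069%). Of the 5 called runs, 5 passed with loess, the replicate block or outlier spots kept, and 0 from the authors' deposited table or with the slide block. P16 turned from -0.31 to 0.089 and P3 from -0.30 to 0.097 with the median of the probes. D14 could not be fitted with both channels above background, having 2 such probes. No label says whether equal replicate numbers share a source. Same-numbered arrays correlated in their deviations at -0.14, 0.28 and 0.33, and unlike-numbered ones at -0.38 to 0.22. These values do not settle whether the samples are paired. The replicate block gave 7 runs (11.9%) and 87 probes (8.67%). The cause of these changes was not tested.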
